A study of Mus musculus with 12 samples.

Results

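Gene counts from 12 mouse brain libraries were examined at 6 annotated genes of the presynaptic terminal or lying opposite one. The 6 rows were Gm14703 (opposite Syp), Gm14205 (opposite Slc32a1), Gm26658 (opposite Syt4), Bsn, Pclo and Cplx1, out of 55471 rows in each count file, with symbols from GENCODE release M21. They were chosen because they were low in RNA that came down with the U1 small nuclear ribonucleoprotein (U1 snRNP), as measured in these same libraries. Their U1 to input values are therefore given as a description, with no test.

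The tissue was mixed cortex and hippocampus of male C57BL6JL mice aged 3 to 5 months. Animals had either received maximal electroconvulsive stimulation (MECS), an 85 mA current for 1 s through earclips that gave generalized convulsions, with tissue taken 90 min later, or were naive mice handled in parallel. Tissue from both was homogenized and irradiated with ultraviolet light at 400 mJ/cm2, which crosslinks RNA to protein, and an input RNA sample was removed from the lysate before the rest was precipitated with an antibody against U1-70K, a protein of U1 snRNP. The 4 groups of 3 libraries were MECS U1, MECS input, naive U1 and naive input, and the titles pair every U1 library with the input taken from its own lysate. No control precipitate is among these libraries, so U1 to input ratios compare 2 RNA fractions, and binding cannot be told apart from other differences in recovery. That each lysate came from a separate mouse is taken from the numbering, and p-values measure the spread between these samples. The series asked whether neuronal stimulation changes what U1 snRNP binds.

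Counts in genes ranged over libraries from 704432 to 1962312, which was 1.42 to 1.84% of listed reads. The kit was stranded, and reads in no feature made up 88.3 to 91.3% of listed reads. Each row is called a feature here, since the sources used here do not say how strand was treated in counting: reads of a gene and of an RNA on its other strand then cannot be told apart by a row's name. Markers of excitatory neurons were all detected by their own rows, with summed levels of 371 to 492 CPM (counts relative to the TMM-scaled total of each library) in MECS U1, 388 to 520 CPM in MECS input, 373 to 524 CPM in naive U1 and 397 to 505 CPM in naive input. Markers of inhibitory neurons summed to 60.5 to 66.96 CPM in MECS U1, 69.5 to 85.0 CPM in MECS input, 63.6 to 68.0 CPM in naive U1 and 55.7 to 95.3 CPM in naive input. Astrocyte, oligodendrocyte, microglial, endothelial and mural markers were detected too, apart from Itgam, a microglial integrin gene, at 0 in all libraries. Astrocyte markers summed to 197 to 219 CPM in MECS U1, against 450.2 to 489 CPM in MECS input, and to 198 to 324 CPM in naive U1, against 388 to 747 CPM in naive input. Oligodendrocyte markers summed to 273 to 321 CPM in MECS U1, against 519.6 to 687 CPM in MECS input, and to 266 to 284 CPM in naive U1, against 490.0 to 719 CPM in naive input. Microglial markers summed to 312 to 337 CPM in MECS U1, against 336 to 380.0 CPM in MECS input, and to 321 to 330.4 CPM in naive U1, against 359.6 to 411 CPM in naive input. Vascular lists lay the other way: endothelial markers summed to 274 to 305 CPM in MECS U1, against 216 to 247 CPM in MECS input, and to 324 to 388 CPM in naive U1, against 255 to 277 CPM in naive input. Mural markers summed to 305 to 327 CPM in MECS U1, against 259 to 295 CPM in MECS input, and to 354 to 476 CPM in naive U1, against 261 to 274 CPM in naive input. By features opposite the marker genes, some sums were larger. Excitatory sums were 489 to 653 CPM in MECS U1, against 710 to 894 CPM in MECS input. In naive brain they were 513 to 574 CPM in U1, against 739.7 to 789 CPM in input. Inhibitory sums, which include Gm14205, were 125 to 136 CPM in MECS U1, against 232 to 353 CPM in MECS input. In naive brain they were 103 to 118 CPM in U1, against 285 to 402 CPM in input. Astrocyte sums were 1400 to 1460 CPM in MECS U1, against 3652 to 5423 CPM in MECS input. In naive brain they were 1078 to 1257 CPM in U1, against 4112 to 6338 CPM in input. Mural sums were 1272 to 1938 CPM in MECS U1, against 296 to 421 CPM in MECS input. In naive brain they were 1403 to 2493 CPM in U1, against 276 to 428 CPM in input. Endothelial sums were 871 to 1393 CPM in MECS U1, against 340.0 to 517 CPM in MECS input. In naive brain they were 866 to 1545 CPM in U1, against 436 to 468 CPM in input. Oligodendrocyte and microglial sums were smaller and overlapped in MECS brain. The part of these differences in the values below was not tested. For differences between MECS and naive brain, fewer cells of a type and less RNA per cell cannot be told apart in bulk tissue.

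U1 snRNP pairs through its RNA with 5′ splice sites at the start of introns, and it also holds back premature polyadenylation inside introns. Presynaptic terminals release transmitter from vesicles that are filled by transporters, tethered at a protein meshwork called the active zone, and fused with the plasma membrane by SNARE proteins when calcium sensors of the synaptotagmin family bind calcium. Syp encodes synaptophysin, an abundant membrane protein of synaptic vesicles, Slc32a1 the transporter that loads GABA and glycine, and Syt4 synaptotagmin 4. Bsn and Pclo encode Bassoon and Piccolo, giant scaffold proteins of the active zone, and Cplx1 encodes complexin 1, which binds assembled SNARE complexes and regulates fusion.

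The 3 features with Gm symbols are annotated as antisense RNAs, and their positions against the coding genes differ (GENCODE M21, GRCm38, the assembly also called mm10). Gm14703 (ENSMUSG00000087644) has 3 exons on the minus strand at chrX:7651106-7657258, and 1606 of its 1820 exon bases lie within Syp (plus strand, chrX:7638471-7653256). Of these, 875 face exon 8 of Syp, all outside the coding sequence, and 731 face the intron before it. Gm14205 (ENSMUSG00000087563) has 2 exons on the minus strand at chr2:158610910-158611820, and 697 of its 739 exon bases, 94.3%, face exon 1 of Slc32a1, 365 of them coding. Gm26658 (ENSMUSG00000096934) has 3 exons on the plus strand at chr18:31440318-31449099. Only 807 of its 2500 exon bases lie within Syt4 (minus strand, chr18:31437808-31447406), 566 of them facing exons, and the rest extends past the annotated start of Syt4.

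Bsn (ENSMUSG00000032589) lies on the minus strand at chr9:108096022-108190384 and Pclo (ENSMUSG00000061601) on the plus strand at chr5:14514918-14863459, with 15938 and 22457 exon bases. Cplx1 (ENSMUSG00000033615) lies on the minus strand at chr5:108518554-108550024, with 2189 exon bases and no overlapping gene. No exon base of Bsn faces an opposite-strand gene, while 429 and 496 exon bases of Pclo face exons of the antisense features Gm26918 and Gm26954.

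The stretches that place 2 of the antisense features against their coding genes are shown here from GENCODE M21 transcripts of GRCm38, 5′ to 3′. The first is Gm14205, minus strand, chr2:158611242-158611331, with the reverse complement of the Slc32a1 start codon in capitals, and the second is the same stretch read as Slc32a1, plus strand, with the start codon in capitals. The third is Gm14703, minus strand, chrX:7651777-7651856, with the reverse complement of the AG that ends the last Syp intron in capitals.
Gm14205: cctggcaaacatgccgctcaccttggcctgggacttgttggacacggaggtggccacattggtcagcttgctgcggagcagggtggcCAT
Slc32a1: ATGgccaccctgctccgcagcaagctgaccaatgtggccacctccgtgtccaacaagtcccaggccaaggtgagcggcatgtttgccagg
Gm14703: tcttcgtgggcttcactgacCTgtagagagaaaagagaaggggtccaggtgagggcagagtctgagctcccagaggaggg
A spliced Syp messenger RNA does not hold the intron stretch that Gm14703 faces, whereas the Slc32a1 stretch is coding sequence.

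The next set is shown because U1 RNA pairs with 5′ splice sites in general: it gives the annotated site nearest to the consensus, CAGGTAAGT, among those that could be read in each gene. Pairing at these sites was not measured. The 9 bases compared with the consensus are in capitals, 3 of the exon and 6 of the intron. Only sites that another annotated transcript reads through could be read, which was 2 of 8 in Syp, 1 of 12 in Bsn, 3 of 25 in Pclo, 1 of 4 in Cplx1 and 0 of 1 in Slc32a1. The coordinates are chrX:7638719-7638738 for Syp (plus strand), chr9:108110052-108110071 for Bsn (minus), chr5:14680004-14680023 for Pclo (plus) and chr5:108548522-108548541 for Cplx1 (minus).
Syp: ggtgaatCAGGTACGCgctc
Bsn: caaggctCATGTGAGTcccc
Pclo: gtgtctaCAGGTCAGTatga
Cplx1: tcaccatGGAGTTCGTgatg
The sites matched the consensus at 7 of 9 bases in Syp, 7 in Bsn, 8 in Pclo and 4 in Cplx1. The intron portion of the consensus, GTAAGT, was searched on both strands of each longest spliced transcript. On the sense strand it occurred 0 times in Gm14703, Gm14205 and Gm26658, 1 time in Bsn, 2 times in Pclo and 1 time in Cplx1. Among genes with a transcript within 10% of the same length, 19.1% held it on the sense strand for the length of Gm14703, 5.28% for Gm14205, 26.9% for Gm26658, 66.2% for Bsn, 88.9% for Pclo (18 genes) and 22.0% for Cplx1. On the antisense strand it occurred 1 time in Gm14703, 0 times in Gm14205, Gm26658 and Cplx1, 2 times in Bsn and 5 times in Pclo. The share of length-matched genes holding it there was 27.7% for Gm14703, 8.13% for Gm14205, 34.0% for Gm26658, 93.2% for Bsn, 88.9% for Pclo and 30.9% for Cplx1.

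**Figure D1:**
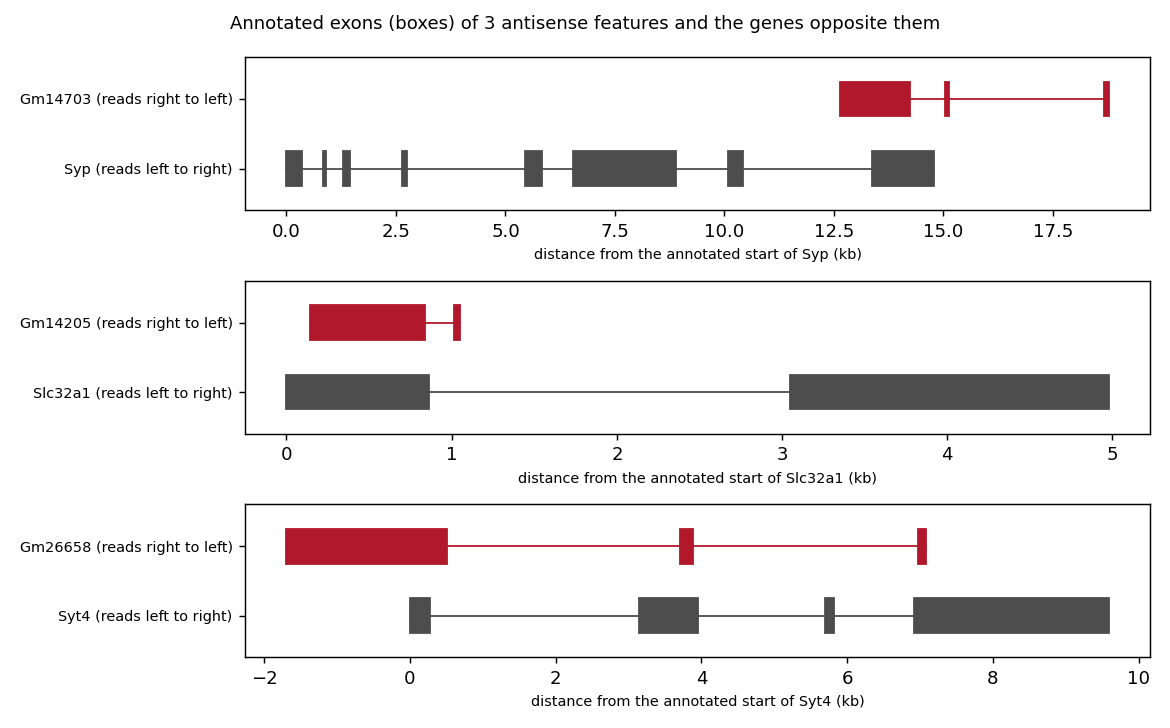
Annotated exons (boxes) and introns (lines) of Gm14703, Gm14205 and Gm26658 above the genes opposite them, by distance in kb from the annotated start of the coding gene. Gm14205 lies almost wholly against the first exon of Slc32a1, Gm14703 against the end of Syp, and most of the exon length of Gm26658 lies beyond the start of Syt4.

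Levels differed widely between the features. Per kb of exon, mean input levels in naive brain were 2122 ± 504 CPM for Gm14703, 260 ± 59.0 CPM for Gm14205, 171 ± 46.9 CPM for Gm26658, 12.7 ± 3.63 CPM for Bsn, 3.22 ± 1.43 CPM for Cplx1 and 2.11 ± 0.761 CPM for Pclo (SD, n = 3). The order was the same in MECS input and in both U1 groups, but several neighbours in it did not differ beyond their spread. The mean ± SD ranges of Gm14205 and Gm26658 overlapped in MECS input, naive U1 and naive input, those of Bsn and Cplx1 in MECS input and naive U1, and those of Cplx1 and Pclo in naive U1 and naive input. Without regard to length, Gm14703 ranked 8th by CPM among the 27470 features with a count in naive input and 8th of 27810 in MECS input. It ranked 66th in both U1 groups. Rows of the genes opposite had far lower levels per kb of exon in naive input. These were 3.63 CPM for Syp, 1.02 CPM for Slc32a1 and 0.197 CPM for Syt4. Whether reads in the antisense rows came from the annotated strand or from the coding genes opposite was not tested.

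Gm14703 was the most abundant feature and among the lowest with U1. It had 977, 647 and 701 CPM in MECS U1, against 4225, 2290.5 and 4375 CPM in MECS input, and 788, 693 and 594 CPM in naive U1, against 4751, 3915 and 2920.1 CPM in naive input. Every U1 library was below every input library. The U1 level was 4.67-fold lower than input in MECS brain (log2 change -2.22, SE 0.20) and 5.54-fold lower in naive brain (log2 change -2.47, SE 0.19). A lower log2 change was found for 22 of 10791 features tested in MECS brain and 14 of 10918 in naive brain, and the medians of all features were 0.02 and 0.03. Gm14703 was chosen for a low value in these libraries, so nothing is read from these ranks.

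The row of Syp itself was far lower than the feature opposite it, with 3.63 CPM per kb of exon in naive input, against the 2122 CPM per kb given above for Gm14703. Its counts were 19, 20 and 19 in MECS U1, against 32, 10 and 27 in MECS input, and 15, 25 and 18 in naive U1, against 24, 13 and 23 in naive input. In levels this was 13.8 ± 1.83 CPM in MECS U1, against 19.5 ± 9.25 CPM in MECS input, and 15.5 ± 2.90 CPM in naive U1, against 18.9 ± 1.62 CPM in naive input (SD, n = 3). The difference between U1 and input did not pass the test for Syp in MECS brain (log2 change -0.50, SE 0.36, edgeR adjusted p = 0.496) or in naive brain (-0.31, SE 0.37, adjusted p = 0.710). Within each animal, the U1 to input ratio of Gm14703 was below that of the Syp row in 6 of 6 animals. Gm14703 was chosen for a low ratio in these libraries and Syp was not, so nothing is read from this count.

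Gm14205, opposite the gene of the vesicular GABA and glycine transporter, was also lower with U1. It had 48.5, 39.0 and 41.5 CPM in MECS U1, against 200.3, 122 and 121 CPM in MECS input, and 35.5, 28.1 and 53.4 CPM in naive U1, against 239, 153 and 184 CPM in naive input. No U1 value reached the lowest input value of its state. The U1 level was 3.44-fold lower in MECS brain (log2 change -1.78, SE 0.21) and 5.00-fold lower in naive brain (-2.32, SE 0.22). The row of Slc32a1 itself had at most 6 counts in any library and was not tested.

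Gm26658, which covers the start of Syt4, had 102, 103 and 103 CPM in MECS U1, against 499, 327 and 345 CPM in MECS input, and 124, 132 and 108 CPM in naive U1, against 551, 413 and 318 CPM in naive input. Its U1 values lay close together in both states while its input values spread more widely. The U1 level was 3.81-fold lower in MECS brain (log2 change -1.93, SE 0.17) and 3.49-fold lower in naive brain (-1.80, SE 0.18). The row of Syt4 itself had at most 3 counts in any library and was not tested.

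Bsn, the Bassoon gene, was counted under its own symbol and was lower with U1 in both states. Its level was 65.2, 59.7 and 57.0 CPM in MECS U1, against 205, 175 and 203 CPM in MECS input, and 61.2, 35.2 and 92.9 CPM in naive U1, against 159, 269 and 182 CPM in naive input. The groups did not overlap in either state, and naive U1 spread more than MECS U1. The U1 level was 3.20-fold lower in MECS brain (log2 change -1.68, SE 0.16) and 3.24-fold lower in naive brain (-1.70, SE 0.24).

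For opposite-strand features inside introns of Bsn, the difference between U1 and input did not pass the test. The processed transcript 4930447F24Rik had 367 ± 110 CPM in MECS U1, against 312 ± 21.7 CPM in MECS input, and 302 ± 31.6 CPM in naive U1, against 264 ± 39.4 CPM in naive input (SD, n = 3). Its U1 to input log2 change was 0.24 (SE 0.17, edgeR adjusted p = 0.508) in MECS brain and 0.20 (SE 0.16, adjusted p = 0.545) in naive brain. The pseudogene Gm37201 gave -0.05 (SE 0.19, adjusted p = 0.917) in MECS brain and 0.28 (SE 0.20, adjusted p = 0.471) in naive brain. The difference between these features and Bsn was not tested.

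Pclo, the Piccolo gene, had the smallest change of the 6 in MECS brain. It had 25.8, 18.4 and 19.2 CPM in MECS U1, against 42.1, 41.1 and 63.6 CPM in MECS input, and 20.8, 20.1 and 25.8 CPM in naive U1, against 33.4, 66.4 and 42.2 CPM in naive input. The groups did not overlap, on 17 to 40 counts per U1 library and 39 to 66 per input library. The U1 level was 2.30-fold lower in MECS brain (log2 change -1.20, SE 0.26) and 2.06-fold lower in naive brain (-1.04, SE 0.30).

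Both antisense features that face exons of Pclo fell with U1. Gm26954 averaged 380 ± 13.8 CPM in MECS U1, against 869 ± 127 CPM in MECS input, and 316 ± 45.3 CPM in naive U1, against 944 ± 200.5 CPM in naive input (SD, n = 3). Its log2 change was -1.19 (SE 0.14, edgeR adjusted p = 3.28e-06) in MECS brain and -1.57 (SE 0.17, adjusted p = 6.45e-08) in naive brain. For Gm26918 it was -0.84 (SE 0.14, adjusted p = 0.000290) in MECS brain and -0.89 (SE 0.16, adjusted p = 0.000146) in naive brain. Reads from exons where Pclo and these features overlap cannot be assigned to one of them, since the treatment of strand in counting is unknown.

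Cplx1, the complexin 1 gene, had the fewest counts and the least even pattern. Its counts were 5, 4 and 7 in MECS U1, against 34, 18 and 19 in MECS input, and 8, 4 and 3 in naive U1, against 4, 6 and 12 in naive input. In levels this was 3.79, 3.06 and 4.34 CPM in MECS U1, against 25.1, 16.1 and 18.3 CPM in MECS input, and 9.79, 2.01 and 2.58 CPM in naive U1, against 3.43, 8.67 and 9.05 CPM in naive input. The MECS groups did not overlap, but the naive groups did, because animal 1 had more in U1 than in input. The U1 level was 5.20-fold lower in MECS brain (log2 change -2.38, SE 0.42) and 1.67-fold lower in naive brain (-0.74, SE 0.65), where the SE is nearly as large as the change. The naive value was -1.59 without naive U1 1, -0.25 without naive U1 2 and -1.08 without naive input 1, and in 1 of the fits, without naive input 3, Cplx1 had too few counts to be kept.

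**Figure D2:**
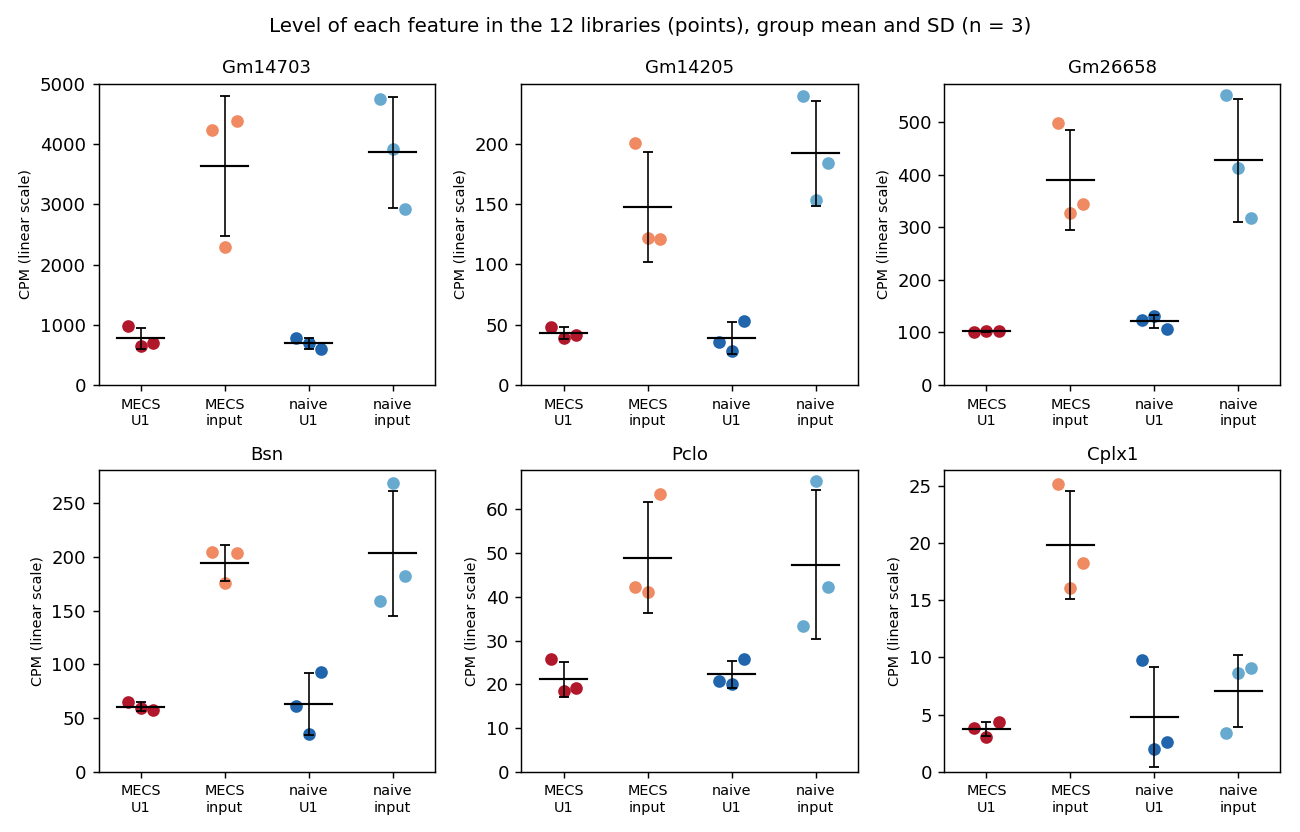
Level of each feature in CPM (linear axis from 0) in the 12 libraries (points), with the group mean (bar) and SD (whisker, n = 3). Every feature is lower in MECS U1 than in MECS input without overlap, and in naive brain Cplx1 alone overlaps.

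In count, 6 of 6 features were lower with U1 than with input without overlap of libraries in MECS brain, as were 12.6% of all features tested. In that comparison 5.21% of all features tested were called lower and 3.3% higher, 8.51% in all (edgeR quasi-likelihood test, Benjamini-Hochberg adjusted p under 0.05). In naive brain it was 5 of 6, against 12.8% of all features, and 6.26% were called lower and 4.19% higher, 10.5% in all. The features were chosen on these contrasts, so nothing is read from these counts. With the animal as a replicate block, 1488 features were called in MECS brain, against 918 without it.

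Read within each animal, with a pseudocount of 0.5 CPM, the ratio of U1 to input had a median over 6 animals of 18.98% for Gm14703, with a range of 16.02 to 28.3%. The median was 26.6% for Cplx1 (16.7 to 262%), 26.7% for Gm14205 (15.02 to 34.5%), 30.7% for Gm26658 (20.4 to 33.9%), 33.1% for Bsn (13.3 to 51.1%) and 52.8% for Pclo (30.8 to 62.8%). Neighbours in this order overlapped, and the ranges of Gm14703 and Pclo were the only ones that did not overlap each other. Syp by its own row had a median of 77.9%, with a range of 46.3 to 167%.

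Counting error differs strongly behind these ratios. In MECS animal 1, the Gm14703 ratio without pseudocount was 0.231, with an exact 95% interval of 0.217 to 0.246. In naive animal 1, the Cplx1 ratio was 2.86 on 8 U1 and 4 input counts, with an interval of 0.765 to 12.96, so its direction was not resolved at this depth. Such intervals cover counting error only.

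**Figure D3:**
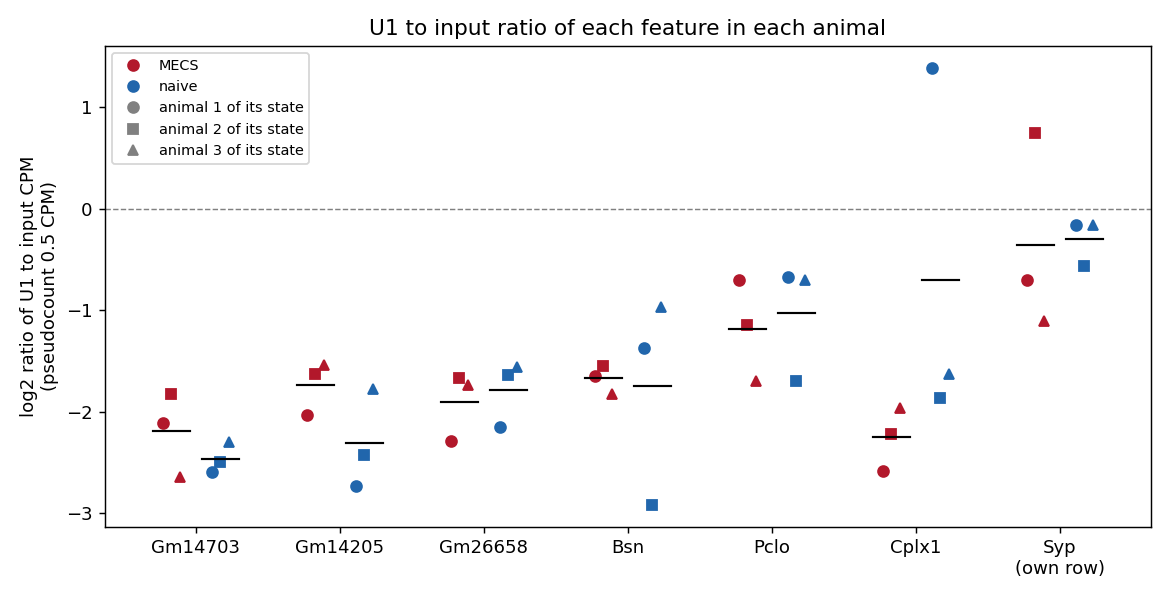
Log2 ratio of U1 to input CPM (pseudocount 0.5 CPM) of each feature and of the Syp row in each animal, MECS in red left of naive in blue, with the mean as a bar and the animal by its symbol shape. The points of the 6 features lie below 0 except for Cplx1 in naive animal 1, and Bsn in naive animal 2 is the lowest of all points.

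The libraries of these comparisons are also those in which the features were chosen. The stated choice was on U1 to input, not on MECS against naive, but the U1 to input values enter the ratio comparison. Cplx1 was low with U1 mainly in MECS brain (log2 change -2.38, SE 0.42), where its input level was higher than in naive brain. Its U1 to input change in naive brain was -0.74 (SE 0.65). The convulsion values of Cplx1 are therefore not independent of the choice. After convulsion, 0 of the 6 features passed the test in input RNA, where 0.606% of 10402 features tested were called, 0.51% higher and 0.0961% lower. In U1 RNA, 0 of the 5 features tested were called, where 0.386% of 11141 features were called, 0.332% higher and 0.0539% lower, and Cplx1 had too few counts to be tested. For the ratio of U1 to input, 0 of 6 were called and 0% of 12184 features, with 383 features at an unadjusted p under 0.05 in edgeR and 0 called by DESeq2.

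For Gm14703, the values of both states were close. Its MECS over naive log2 change was -0.11 in input (SE 0.19, edgeR adjusted p = 0.909), 0.14 in U1 (SE 0.16, adjusted p = 0.816) and 0.25 in the ratio (SE 0.28, adjusted p = 0.997). For Gm14205 it was -0.40 in input (SE 0.19, unadjusted p = 0.0400, adjusted p = 0.482), 0.14 in U1 (SE 0.25, adjusted p = 0.895) and 0.54 in the ratio (SE 0.32, adjusted p = 0.997). Its input change was -0.67 without MECS input 1 (adjusted p = 0.0887), -0.26 without MECS input 2, -0.27 without MECS input 3 and -0.22 without naive input 1, and its ratio change ranged from 0.32 without naive animal 1 to 0.88 without naive animal 3. The input groups of Gm14205 overlapped, with 148 ± 45.5 CPM in MECS input and 192 ± 43.6 CPM in naive input (SD, n = 3).

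Gm26658 had a log2 change of -0.15 in input (SE 0.18, edgeR adjusted p = 0.842) and -0.27 in U1 (SE 0.16, adjusted p = 0.618), with a ratio change of -0.12 (SE 0.26, adjusted p = 0.997). Its U1 values, 102 to 103 CPM in MECS and 108 to 132 CPM in naive brain, did not overlap, as was the case for 15.5% of all features tested there. Bsn had -0.07 in input (SE 0.18, adjusted p = 0.937), -0.04 in U1 (SE 0.26, adjusted p = 0.976) and 0.02 in the ratio (SE 0.32, adjusted p = 0.997). Pclo had 0.06 in input (SE 0.26, adjusted p = 0.963), -0.09 in U1 (SE 0.30, adjusted p = 0.952) and -0.16 in the ratio (SE 0.39, adjusted p = 0.997).

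Cplx1 had the largest convulsion values of the 6, on few counts, and none passed the test. It averaged 19.8 ± 4.71 CPM in MECS input and 7.05 ± 3.14 CPM in naive input (SD, n = 3), and these groups did not overlap, nor did those of 14.9% of all features tested. The log2 change was 1.49, with an SE of 0.44, an unadjusted p of 0.00171 and an edgeR adjusted p of 0.108. Over the alternatives the adjusted p was 0.0659 to 0.499 and the change 1.13 to 1.83. DESeq2 gave no adjusted p for Cplx1. In U1 RNA it averaged 3.73 ± 0.642 CPM in MECS and 4.79 ± 4.34 CPM in naive brain, with overlap. The ratio change was -1.62 (SE 0.81, edgeR unadjusted p = 0.0539, adjusted p = 0.997).

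By the ratio per animal, the difference of MECS and naive mean log2 ratios was 0.27 for Gm14703, 0.58 for Gm14205, -0.12 for Gm26658, 0.08 for Bsn, -0.16 for Pclo and -1.55 for Cplx1. In 2-sided exact permutation tests of 3 against 3 animals, whose smallest p is 0.1, the p-values were 0.4, 0.2, 0.5, 1, 0.6 and 0.1 in that order, and the lowest was 0.6 after adjustment over the 6. For Cplx1 the ratios of the MECS animals, 0.167 to 0.257, all lay below those of the naive animals, 0.274 to 2.62. These rest on 4 to 7 U1 counts per MECS library and 3 to 8 per naive library. The share of all features whose ratios per animal do not overlap was not computed, so nothing is read from this separation. Without naive animal 1 the Cplx1 difference was -0.50.

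**Figure D4:**
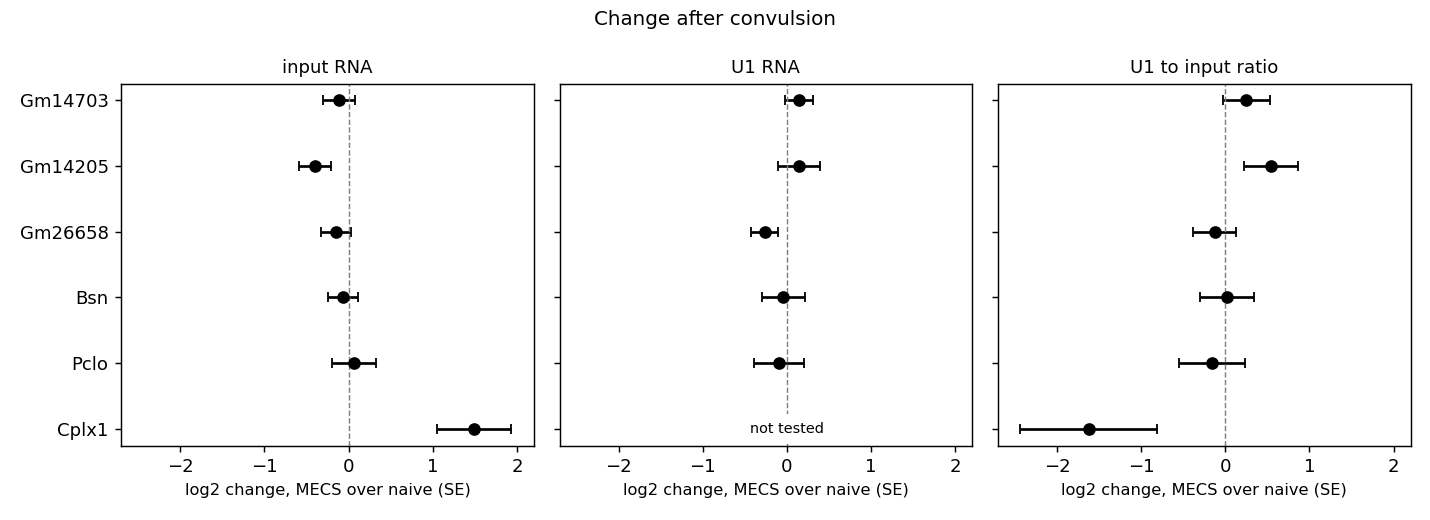
MECS over naive log2 change of each feature in input RNA, in U1 RNA and in the U1 to input ratio, with the SE as whiskers. The points of Gm14703, Gm14205, Gm26658, Bsn and Pclo lie between -0.40 and 0.54, Cplx1 stands at 1.49 in input and -1.62 in the ratio, and none passed the adjusted threshold.

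Other genes of the presynaptic terminal were read from lists of 72 symbols, with Bsn, Pclo and Cplx1 left out of the counts, covering vesicle membrane proteins, vesicular transporters, synaptotagmins, active zone scaffolds and SNARE regulators. By their own rows, 2 of 34 tested fell and 0 rose with U1 in MECS brain, and 1 of 36 fell and 0 rose in naive brain. Over all features tested, 5.21% fell in MECS brain and 6.26% in naive brain, so for the genes left these counts are near that background. Bsn, Pclo and Cplx1 had been chosen as low with U1, so the counts without them do not describe the lists as a whole. Their median log2 changes were -0.25 in MECS brain and -0.23 in naive brain, against 0.02 and 0.03 over all features, with 23 below 0 in each state. Slc17a7, the vesicular glutamate transporter of cortical excitatory neurons, fell in MECS brain (-1.64, SE 0.28, edgeR adjusted p = 0.000318) and in naive brain (-1.47, SE 0.30, adjusted p = 0.000870). Rph3a, whose protein rabphilin binds Rab3 on vesicles, fell in MECS brain (-1.42, SE 0.27, adjusted p = 0.000929), with -1.06 in naive brain (SE 0.36, adjusted p = 0.0553).

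Other members of the same lists had values on both sides of 0 that did not pass the test. Among vesicle membrane genes, 6 of 7 tested were below 0 in each state. Syngr1 had a U1 to input log2 change of -1.11 in MECS brain (SE 0.44, edgeR adjusted p = 0.142) and -1.35 in naive brain (SE 0.59, adjusted p = 0.169). Sv2a had -1.24 in MECS brain (SE 0.46, adjusted p = 0.110). Among active zone genes, Rims1 had a U1 to input log2 change of -0.84 in MECS brain (SE 0.27, edgeR adjusted p = 0.0596) and -0.65 in naive brain (SE 0.30, adjusted p = 0.189). Ppfia3 had -0.67 in MECS brain (SE 0.27, adjusted p = 0.152) and -0.67 in naive brain (SE 0.30, adjusted p = 0.181). Erc2, another active zone gene, had -0.80 in MECS brain (SE 0.52, adjusted p = 0.434) and 0.84 in naive brain (SE 0.48, adjusted p = 0.333). Besides Bsn and Pclo, 4 of 8 active zone genes tested were below 0 in MECS brain and 5 of 9 in naive brain. Among synaptotagmins, the calcium sensor gene Syt1 had -1.17 in MECS brain (SE 0.38, adjusted p = 0.0630) and -1.01 in naive brain (SE 0.36, adjusted p = 0.0744). Syt11 had -1.41 in MECS brain (SE 0.45, adjusted p = 0.0532) and Syt12 had 1.08 in naive brain (SE 0.44, adjusted p = 0.128), while Syt2 had 0.26 in MECS brain (SE 0.19, adjusted p = 0.508) and 0.50 in naive brain (SE 0.23, adjusted p = 0.203). Cplx2, the gene of another complexin, had -0.29 in MECS brain (SE 0.25, adjusted p = 0.584) and -0.23 in naive brain (SE 0.25, adjusted p = 0.674). The SNARE gene Stx1a had 0.78 in MECS brain (SE 0.39, adjusted p = 0.2695) and -0.52 in naive brain (SE 0.38, adjusted p = 0.496), and Snap25, another, had -0.59 in MECS brain (SE 0.40, adjusted p = 0.457) and -0.67 in naive brain (SE 0.43, adjusted p = 0.412).

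Features lying opposite listed presynaptic genes, which is how Gm14703 and Gm14205 were read, were mostly near 0. With U1, 3 of 26 fell and 0 rose in MECS brain, where 5.21% of all features tested fell. In naive brain 3 of 25 fell and 0 rose, where 6.26% of all features fell. The medians were -0.00 in MECS brain and 0.03 in naive brain. In all 3 that fell, the overlap with the gene opposite is part exonic and part intronic, as in Gm14703. The 3 were Gm26918 and Gm26954 opposite Pclo and Gm29587 opposite Syt16, which changed by -1.17 in MECS brain (SE 0.18, edgeR adjusted p = 0.000106) and -1.005 in naive brain (SE 0.21, adjusted p = 0.000947).

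After convulsion, 0 of 32 own rows of the lists changed in input and 0 of 32 in U1 RNA, where 0.606% and 0.386% of all features did. Of the features opposite listed genes, 2 of 25 rose in input and 1 of 26 in U1 RNA, and all 3 lie in introns, a class in which 33 of 2772 features rose in input and 22 of 3005 in U1 RNA. In input these were Gm17190 inside an intron of Sv2c (1.61, SE 0.34, edgeR adjusted p = 0.0156) and Gm24858 inside an intron of Sv2b (0.99, SE 0.24, adjusted p = 0.0387), both genes of vesicle glycoproteins. In U1 RNA it was Gm18325 inside an intron of the synapsin gene Syn2 (1.04, SE 0.19, adjusted p = 0.0103).

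**Figure D5:**
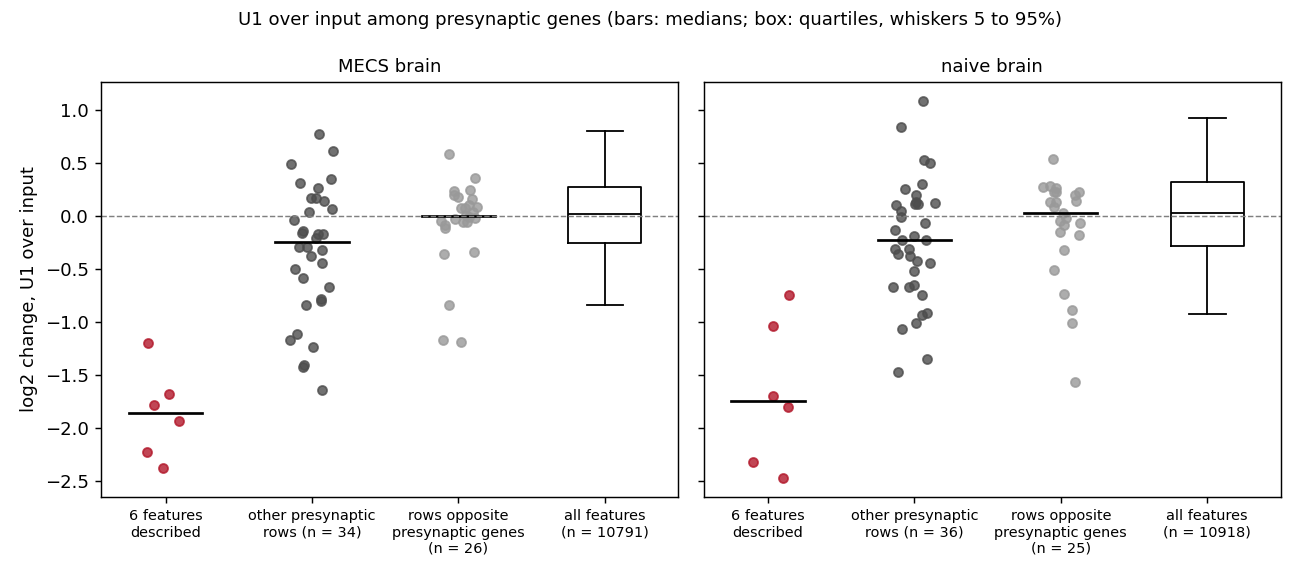
U1 over input log2 change in MECS brain (left) and naive brain (right) of the 6 features described, of other presynaptic genes by their own rows, of features opposite presynaptic genes, and of all features tested (box of quartiles, whiskers from the 5th to the 95th percentile). Bars are medians: the other presynaptic rows lie at -0.25 and -0.23 and those opposite presynaptic genes at -0.00 and 0.03, while the 6 features were chosen for low values.

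The 6 features varied together over the 12 libraries to different degrees. Pearson correlations of log2 CPM were highest between Gm14703 and Gm26658 (r = 0.970) and lowest between Gm14205 and Cplx1 (r = 0.573). Pairs with Cplx1 had r of 0.573 to 0.695, and all other pairs 0.810 to 0.970. These describe libraries that share the difference of U1 and input on which the features were chosen.

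The features most like each one, by the same correlation over 12 libraries, were sought among those kept by a filter on counts at a mean log2 CPM of at least 2. Because of the shared difference of U1 and input, other features low with U1 can rank high, so nothing is read from this likeness. The most alike were Clcn1 (0.993) and Eps8l3 (0.992) for Gm14703 and B130046B21Rik (0.983) and Stk16 (0.979) for Gm14205. For Gm26658 they were Gpr39 (0.990) and Gm28221 (0.990), an antisense feature facing exons of Ncald. For Bsn they were Shank1 (0.984), a scaffold gene of the postsynaptic density, and Slc1a2 (0.980), the astrocytic glutamate transporter gene. Pclo was most like Kif5a (0.963), a kinesin motor gene of neurons, and Sparcl1 (0.9501), and Cplx1 was most like Spock1 (0.848) and Ncam1 (0.842), at lower values than the others.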

How the data were processed

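The authors deposited whole-number counts per Ensembl gene, 1 file for each of 12 libraries, without normalization. Per the labels' protocols, a stranded total RNA kit with ribosomal RNA depletion and single-end reads of 100 bp were used. Tools named, without roles, per the submitters' processing notes are HISAT2 2.2.0, StringTie 2.1.3, Salmon 1.4, DESeq2, Trimmomatic 0.39 and FastQC, and the build is mm10. Which program counted the reads, with what strand setting and annotation, is not given in the sources here. The 5 rows per file that name no gene were left out; reads in no feature made up 88.3 to 91.3% of the listed reads. Of 55471 identifiers, 55230 matched GENCODE M21.

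Counts were fitted over the whole table with edgeR 4.0.16 in R 4.3.3 (TMM, filterByExpr, quasi-likelihood test, Benjamini-Hochberg adjustment, threshold 0.05), tested on simulated data. CPM are relative to TMM-scaled gene counts. A feature was read as opposite a gene if that gene alone held 50% or more of its exon bases on the other strand, with no more than 10% in another, so Gm26658 was not assigned to Syt4 by this rule. SE is the log2 change divided by the square root of F. Alternatives were DESeq2 1.42.0, RLE or library size scaling, no filter, a replicate block, 1 fit of all libraries, and each library left out in turn. The pairing of U1 and input libraries comes from title prefixes; deviations from group means correlated at 0.11, 0.22 and 0.12 in the MECS pairs and 0.02, -0.10 and -0.02 in the naive pairs.

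The members and gene lists were chosen with earlier results of these data known. Named besides them are overlapping genes, up to 4 genes per presynaptic list and comparison with the smallest p, and the 2 features most correlated with each member at a mean log2 CPM of at least 2 (prior count 2).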

Additional observations from a re-analysis of the deposited data

How the results depend on the processing

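No member was called in any comparison of MECS with naive under any of the 35 alternative counts of members called. Members without an adjusted p counted as not called. DESeq2 gave none for Pclo and Cplx1 in input RNA, or for Gm14205 and Pclo in U1 RNA. All 143 alternative values of the U1 over input changes were negative, from -2.65 to -0.25. The features were chosen for low values in these same libraries, so nothing is read from that sign. The count of all features called moved more. For MECS against naive in input RNA it was 63, against 129 with library size scaling, 111 with no filter and 142 with the replicate block, and leaving out 1 library gave 19 (naive input 1), 21 (naive input 2), 24 (MECS input 3), 31 (naive input 3), 92 (MECS input 2) or 114 (MECS input 1). For U1 RNA it was 43, against 151 with no filter, 86 with DESeq2 and 88 with all libraries in 1 fit, and 13 (without MECS U1 1), 15 (naive U1 1), 121 (MECS U1 2) or 225 (naive U1 2). For the ratio it was 0, against 1 with library size scaling, no filter or the replicate block, and 0 to 1 without an animal. For U1 against input it was 918 in MECS brain, against 1488 with the replicate block and 613 to 894 without a library, and 1141 in naive brain, with 711 (without naive input 1) to 1254. There, library size scaling called 565 higher and 562 lower, against 458 and 683. The cause of these shifts was not tested.

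Changes near 0 turned sign. In U1 RNA, Bsn was 0.000666 with no filter and 0.00554 with the replicate block, and its ratio change was -0.047 with library size scaling. Leaving out 1 library, input changes ranged from -0.26 to 0.16 for Gm14703, -0.34 to 0.083 for Gm26658, -0.22 to 0.18 for Bsn and -0.15 to 0.35 for Pclo. U1 changes ranged from -0.049 to 0.27 for Gm14703, -0.077 to 0.47 for Gm14205, -0.37 to 0.40 for Bsn and -0.25 to 0.044 for Pclo. Ratio changes without an animal ranged from -0.35 to 0.10 for Gm26658, -0.56 to 0.52 for Bsn and -0.52 to 0.14 for Pclo. Ratios per animal ranged from -0.30 to 0.080 for Gm26658, -0.50 to 0.47 for Bsn and -0.50 to 0.10 for Pclo. The block changed no call of a member. Across MECS and naive, libraries share only a number, with correlations of deviations of 0.07, -0.03 and -0.00 in input and 0.01, -0.01 and -0.10 in U1. With under 40 counts of Cplx1 in each library, its depth limits every value given for it.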

Other observations

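Gm14205 belongs to the features whose overlap with an opposite-strand gene is at least 80% exonic. Without the members, 80 of 420 such features fell and 15 rose with U1 in MECS brain, and 104 of 421 fell and 11 rose in naive brain, with median log2 changes of -0.13 and -0.20. Among features whose overlap is at least 80% intronic, 48 of 2924 fell and 119 rose in MECS brain, and 60 of 2871 fell and 146 rose in naive brain, with medians of 0.11 and 0.10. The difference between the 2 classes was not tested.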
